A study of Mus musculus with 6 samples.

Results

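Nuclear pore proteins (nucleoporins) and karyopherins, the soluble receptors that carry cargo through the pore, were taken as all genes whose symbol begins with Nup, Kpna, Kpnb, Ipo, Xpo or Tnpo followed by a digit, plus Xpot. This rule found 44 of the 18059 genes in the tables, of which 21 are pore proteins, 17 are importins (Kpna, Kpnb, Ipo and Tnpo genes) and 6 are exportins (Xpo genes and Xpot). They were measured by RNA sequencing in primary cardiac fibroblasts, the connective tissue cells of the heart, isolated from C57BL/6 mice aged 1 to 2 weeks and grown in medium with 15% fetal bovine serum. A group of 3 libraries came from cells given PDGF-DD, a dimer formed by the active domain of the platelet-derived growth factor PDGF-D, for 12 hours, at a dose that the labels give as 20 µM, a unit that is doubtful for a growth factor. The other 3 libraries came from cells given saline for the same time (control). The labels conflict on genotype. The growth protocol has every culture start from mice with a global PDGF-D knockout, whereas the genotype field reads control for the saline samples and PDGF-D -/- for the PDGF-DD samples. Treatment and genotype cannot be told apart if that field is right.

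The nuclear pore complex is a large ring-shaped assembly set in the nuclear envelope. Outer and inner rings form its scaffold, membrane-anchored nucleoporins hold it in place, and nucleoporins with phenylalanine-glycine (FG) repeats fill the channel and line its cytoplasmic and nuclear faces. Importins bind cargo in the cytoplasm and release it in the nucleus when the small GTPase Ran, in its GTP form, binds them, while exportins take up cargo together with Ran-GTP and release it outside. Importin alpha proteins read the classical nuclear localization signal and are carried by importin beta 1, and the other importin beta-type receptors mostly bind their own cargo directly.

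Library totals lay between 21221115 and 21371829 estimated counts. Counts in every library pair differed by more than sampling noise. The chi-square divided by its degrees of freedom came to 5.11 and 5.70 between control replicate 1 and the other control libraries against 1.90 to 2.74 for the other pairs within a group. Nothing in the labels ties the libraries to separate animals or cultures, so the p-values describe the spread among these 3 and 3 libraries, which may be technical. All 10 fibroblast markers passed the filter on low counts, 1 higher and 7 lower with PDGF-DD, with a summed level of 16781 to 17073 TPM with PDGF-DD and 18525 to 20260 TPM in control. Of all 13270 tested genes, edgeR called 19.1% higher and 17.4% lower at an adjusted p under 0.05. Genes listed as markers of other cell types were detected too. Smooth muscle and pericyte markers (5 of 6 tested, 5 lower) summed to 7072 to 7333 TPM with PDGF-DD and 8934 to 9051 TPM in control. Most of it came from Acta2 (means of 4808 and 6264 TPM) and Tagln (2348 and 2643 TPM). Myh11 stood at only 4.57 and 9.53 TPM and Rgs5 at 2.19 and 3.10 TPM. Which cells the Acta2 and Tagln RNA came from was not tested. Cardiomyocyte markers (5 of 8 tested, 3 lower) summed to 223 to 252 TPM with PDGF-DD and 311 to 336 TPM in control, most of it from Tnnt2. Myh7, which was not tested, was at 0 in every PDGF-DD library and at 0.03, 0.05 and 0 TPM in control. Endothelial markers (6 of 6 tested, 1 lower) summed to 149 to 152 TPM with PDGF-DD and 153 to 171 TPM in control. Macrophage and leukocyte markers (6 of 8 tested, 0 called by edgeR and by DESeq2 and 2 lower at an unadjusted p under 0.05) summed to 70.5 to 79.9 TPM with PDGF-DD and 79.0 to 88.5 TPM in control. Epicardial markers (5 of 5 tested, 1 lower) summed to 54.1 to 56.6 TPM with PDGF-DD and 58.9 to 65.6 TPM in control. Schwann cell markers (3 of 4 tested, 0 called by edgeR, by DESeq2 and at an unadjusted p under 0.05) summed to 6.81 to 7.34 TPM with PDGF-DD and 7.54 to 8.71 TPM in control. The part of these cells in the results below was not tested, and in bulk RNA fewer cells of a type cannot be told from less RNA per cell.

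The transport genes were expressed at moderate levels, and 40 of the 42 that passed the filter on low counts stood above 9 TPM in both groups. TPM is a measure scaled to transcript length and to the library total, which allows levels of different genes to be set side by side. Among importins, Kpnb1 (Entrez gene 16211), which encodes importin beta 1, was the most abundant at 258 ± 11.4 TPM with PDGF-DD and 214 ± 7.13 TPM in control (SD, n = 3 each). Ipo5 followed at 176 ± 6.58 TPM with PDGF-DD and 146 ± 6.78 TPM in control, then Kpna2 at 171 ± 1.27 and 136 ± 1.34 TPM and Ipo4 at 152 ± 0.956 and 139 ± 5.83 TPM. Library values overlapped between Ipo5 and Kpna2 with PDGF-DD. In control they overlapped among Ipo5, Kpna2 and Ipo4, so the order of these genes there is not clear. Ipo8 was the lowest tested importin, at 16.9 ± 0.927 TPM with PDGF-DD and 17.6 ± 0.545 TPM in control. Among exportins, Xpot, the exportin of transfer RNA, led with 92.0 ± 3.89 TPM in PDGF-DD libraries and 86.5 ± 3.61 TPM in control libraries. Xpo1, Xpo5 and Xpo6 lay close together between 51.4 and 64.1 TPM in both groups, and Xpo4 was lowest at 12.4 ± 0.716 and 9.75 ± 0.875 TPM.

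**Figure D1:**
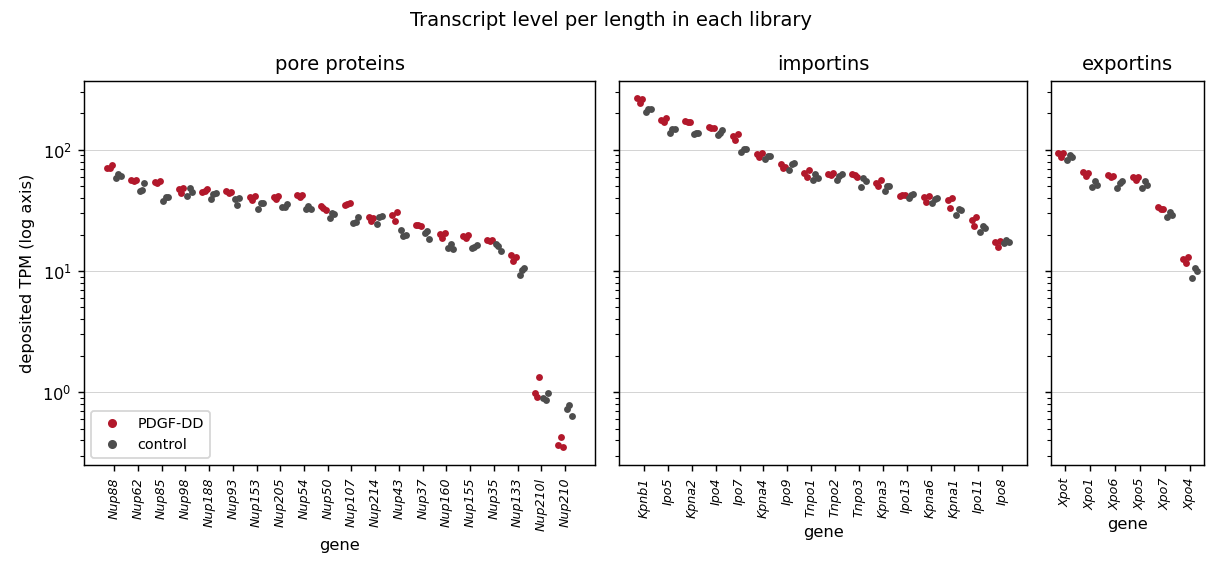
Deposited TPM of the 42 tested members in each library on a log axis, in order of mean level within each class, with 3 points for PDGF-DD (red) left of 3 for control (grey). Kpnb1 stands highest of all members at 258 TPM with PDGF-DD and 214 TPM in control, and Nup210l and Nup210 lie far below the other pore proteins.

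Among pore proteins, Nup88 was highest, at 72.3 ± 2.02 TPM with PDGF-DD and 61.0 ± 2.31 TPM in control, and most others lay between 10 and 60 TPM. The exceptions were Nup210 and Nup210l, which encode a membrane-anchored nucleoporin and its relative. Nup210 stood at 0.383 ± 0.0416 TPM with PDGF-DD and 0.717 ± 0.0709 TPM in control, and Nup210l at 1.07 ± 0.225 TPM and 0.917 ± 0.0569 TPM. Both members that did not pass the filter were near or at 0: Nup62cl had 6, 5 and 4 counts with PDGF-DD and 6, 9 and 6 in control, and Kpna7, an importin alpha of the oocyte and early embryo, had 0 counts in every library.

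Promoter windows of 300 bases, from 250 before to 50 after the annotated start of transcription, were matched in the RefSeq set of assembly GRCm38.p6 for 35 of the 44 members (42 windows, with 7 members having 2 each). The E-box CACGTG, the site bound by MYC and related factors, is its own reverse complement, and it occurred in 7 of 42 member windows (16.7%) and in 2349 of all 32851 windows (7.15%). It occurred in 5 of 28 windows of members that were higher with PDGF-DD (17.9%) and in 2 of 12 windows of tested members that were not (16.7%). The motif GCGCATGC, searched on both strands and a core of the site of NRF1 (nuclear respiratory factor 1), occurred in 4 of 42 member windows (9.52%) and in 891 of all windows (2.71%). The 4 belonged to Nup107, Nup50, Nup62 and Xpo5. They were among the 28 windows of members that were higher with PDGF-DD (14.3%), against 0 of 12 windows of tested members that were not. Of the 35 members with a window, 24 were called higher, and a link between motif and rise was not tested. CCAAT on either strand occurred in 23 of 42 member windows (54.8%) and 37.4% of all windows. TGACGTCA, a palindrome, occurred in 2 of 42 (4.76%) and 1.79%, and TTTCGCGC or TTTGGCGC on either strand in 1 of 42 (2.38%), that of Ipo7, and 0.813%. These letters describe the windows only and do not show that a factor binds there. The windows shown belong to the members with the 2 largest rises among those with an E-box and among those with GCGCATGC. Capitals mark CACGTG in Ipo7 (chr7:110018065-110018364, plus strand, motif beginning 137 bases before the start) and in Nup54 (chr5:92435150-92435449, minus strand, 100 bases before). In Nup107 (chr10:117792656-117792955, minus strand, 65 bases before) and Nup62 (chr7:44815838-44816137, plus strand, 20 bases before) they mark GCGCATGC together with its reverse complement, which overlap.
Ipo7: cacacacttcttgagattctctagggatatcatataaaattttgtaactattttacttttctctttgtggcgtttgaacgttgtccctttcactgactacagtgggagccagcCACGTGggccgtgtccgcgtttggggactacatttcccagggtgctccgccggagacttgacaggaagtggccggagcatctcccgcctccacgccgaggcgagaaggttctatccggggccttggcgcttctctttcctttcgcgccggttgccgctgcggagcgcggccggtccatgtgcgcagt
Nup54: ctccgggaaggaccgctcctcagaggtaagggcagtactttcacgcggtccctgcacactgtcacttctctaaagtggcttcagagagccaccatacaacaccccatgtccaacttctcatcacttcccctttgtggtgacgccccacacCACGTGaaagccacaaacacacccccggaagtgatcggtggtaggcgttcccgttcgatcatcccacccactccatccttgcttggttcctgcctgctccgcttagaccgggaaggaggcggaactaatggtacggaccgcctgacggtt
Nup107: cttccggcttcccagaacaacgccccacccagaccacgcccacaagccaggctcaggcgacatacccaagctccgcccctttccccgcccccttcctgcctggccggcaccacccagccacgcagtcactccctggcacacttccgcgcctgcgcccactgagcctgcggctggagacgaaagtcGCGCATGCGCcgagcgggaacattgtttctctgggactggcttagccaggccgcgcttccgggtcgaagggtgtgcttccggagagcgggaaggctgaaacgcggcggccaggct
Nup62: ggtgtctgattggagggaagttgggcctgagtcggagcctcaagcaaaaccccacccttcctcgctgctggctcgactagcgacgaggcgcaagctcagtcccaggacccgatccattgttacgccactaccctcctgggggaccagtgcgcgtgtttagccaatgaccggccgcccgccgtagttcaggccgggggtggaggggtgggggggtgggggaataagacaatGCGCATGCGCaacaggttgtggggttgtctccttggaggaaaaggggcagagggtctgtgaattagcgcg

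Most members were modestly higher with PDGF-DD. Of 42 tested members, 31 rose and 1 fell by the quasi-likelihood test of edgeR, with p adjusted after Benjamini and Hochberg over all tested genes and a threshold of 0.05. Over all 13270 tested genes 36.5% passed, 19.1% higher and 17.4% lower. The log2 fold changes of the members that rose lay between 0.14 and 0.49, a gain of 10.2% to 40.8%, and the median over all 42 was 0.22 against -0.01 over all tested genes. Positive fold changes were found in 40 of 42 members. Library values, given as CPM (counts scaled to the library total and its TMM factor), did not overlap between the groups for 34 of the 42 tested members that were higher and 1 that was lower, against 23.6% and 23.5% of all tested genes. In deposited TPM the groups were separate for fewer, 29 higher and 1 lower, and the share over all genes was not taken on that scale. With 3 against 3 libraries the exact two-sided permutation test of a single gene cannot give less than p = 0.1, which every member with separate CPM groups reached. Of the 31 rises, 26 passed under each of the 15 other settings tried.

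The pore proteins had 16 of 20 tested members higher and 1 lower, and their median log2 difference was 0.24. The importins had 10 of 16 higher and none lower, with a median of 0.14, and the exportins 5 of 6 higher and none lower, with a median of 0.20. Neither importins nor exportins held a member with an unadjusted p under 0.05 in the lower direction, and DESeq2 called none lower. Summed over members, pore proteins took up 663 ± 14.9 TPM with PDGF-DD and 559 ± 16.7 TPM in control, importins 1457 ± 47.0 and 1269.75 ± 48.9 TPM, and exportins 321 ± 10.8 and 281 ± 14.8 TPM (SD, n = 3 each). For each of these sums the lowest PDGF-DD library lay above the highest control library. Differences between the classes were not tested.

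**Figure D2:**
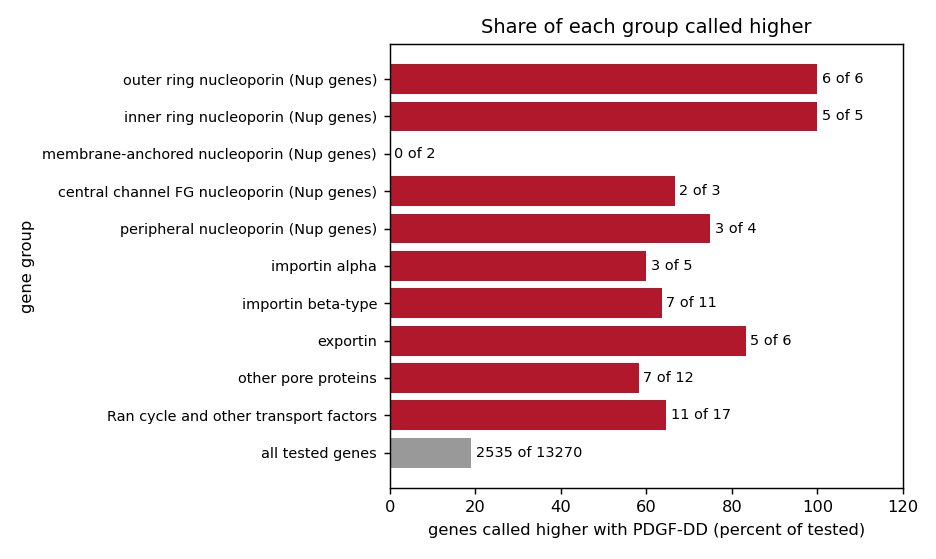
Percent of tested genes called higher with PDGF-DD by edgeR (adjusted p under 0.05) in groups of pore and transport genes, in red, and over all tested genes, in grey, with the numbers beside the bars. The Nup-named genes assigned to the scaffold rings stand at 100%, the membrane-anchored pair Nup210 and Nup210l at 0% and all tested genes at 19.1%. Nup98, which also codes for the outer-ring protein NUP96 and did not pass, is counted with the channel. Ahctf1, Sec13, Seh1l, Ndc1 and Pom121 are counted among the other pore proteins.

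Every tested Nup-named gene that was assigned here to the outer or inner ring rose. The outer ring, or Y complex, is the coat-like subcomplex on both faces of the pore. The 6 Nup-named genes assigned to it all rose, with a median log2 fold change of 0.41. Nup98, which also codes for the Y complex protein NUP96, was counted with the channel. It did not pass (log2 fold change 0.08, adjusted p = 0.146 by edgeR). The other genes of the Y complex, named here after their values were seen, differed less than that median. Seh1l had 68.4, 59.4 and 66.1 CPM with PDGF-DD and 55.2, 59.5 and 53.4 CPM in control, with overlapping groups and a log2 difference of 0.21 (adjusted p = 0.00442 by edgeR). Sec13 had a log2 difference of 0.13 (adjusted p = 0.00946 by edgeR). Ahctf1, which codes for ELYS, the protein that brings the Y complex to chromatin, had 101, 99.8 and 109 CPM with PDGF-DD and 95.8, 98.9 and 94.2 CPM in control and did not pass (log2 difference 0.10, adjusted p = 0.0749 by edgeR). Nup43 (Entrez gene 69912), a beta-propeller subunit of that ring, had 15.7, 14.3 and 16.8 CPM with PDGF-DD, against 12.2, 10.4 and 10.7 CPM in control. This was the largest rise of all members, with a log2 difference of 0.49 (SE 0.08, adjusted p = 4.2e-05 by edgeR). Nup107 (Entrez gene 103468), which joins the stem of the Y, had 46.3, 48.3 and 48.8 CPM with PDGF-DD and 34.6, 33.2 and 36.4 CPM in control, a log2 difference of 0.46 (SE 0.05, adjusted p = 1.45e-07 by edgeR). Nup85 (Entrez gene 445007), at the short arm of the Y, had 49.7, 50.5 and 50.9 CPM with PDGF-DD and 36.3, 37.2 and 36.7 CPM in control, a log2 difference of 0.46 (SE 0.05, adjusted p = 4.97e-08 by edgeR). In these 3 genes every PDGF-DD library stood above every control library. The gap was wide beside the spread within a group for Nup107 and Nup85, but for Nup43 the libraries of a group spread about as widely as the gap.

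Nup133, the foot of the Y, had 34.2, 31.3 and 32.7 CPM with PDGF-DD and 24.3, 25.5 and 26.4 CPM in control, a log2 fold change of 0.37. Nup160, in the long arm, had 51.7, 48.8 and 51.8 CPM with PDGF-DD and 40.6, 41.6 and 38.2 CPM in control, a log2 fold change of 0.34. Nup37, a small propeller bound to Nup160, had the lowest counts of the ring, at 12.6, 13.0 and 12.6 CPM with PDGF-DD and 11.3, 11.1 and 9.60 CPM in control. Its log2 fold change was 0.26 (SE 0.08, adjusted p = 0.0184 by edgeR), and the call was lost in DESeq2 (0.0871) and without control replicate 3 (0.118) and without PDGF-DD replicate 2 (0.0549), with 0.0079 as the lowest adjusted p under any setting. The 6 genes together summed to 175 ± 4.97 TPM with PDGF-DD and 132 ± 2.11 TPM in control, 32.3% more. This sum leaves out the other Y complex genes, which differed less. Sec13 alone stood at 320 TPM with PDGF-DD and 294 TPM in control. Nup98 stood at 46.8 and 44.9 TPM, Seh1l at 43.9 and 38.7 TPM and Ahctf1 at 26.7 and 25.0 TPM.

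The inner ring, which spans the fold of the nuclear membrane and anchors the channel, also had 5 of 5 members higher, with a median log2 fold change of 0.24 and 15.6% more summed TPM. Nup155 (Entrez gene 170762), which binds the membrane, had 53.9, 53.3 and 55.5 CPM with PDGF-DD and 44.9, 43.3 and 44.7 CPM in control, a log2 difference of 0.29 (SE 0.05, adjusted p = 2.72e-05 by edgeR). Nup205, one of the large alpha-helical scaffold proteins, had 102, 98.3 and 104 CPM with PDGF-DD and 85.5, 85.2 and 87.0 CPM in control, a log2 fold change of 0.24. Nup93, the linker that ties the ring to the channel, had 58.2, 57.0 and 56.5 CPM with PDGF-DD and 51.4, 43.7 and 50.1 CPM in control, where replicate 2 was the low library. Its log2 fold change was 0.24. These groups did not overlap in any of the 3 genes.

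Nup188, the relative of Nup205, and Nup35, a small membrane-binding member, rose less firmly. Nup188 had 111, 117 and 118 CPM with PDGF-DD and 101, 104 and 107 CPM in control, a log2 difference of 0.15 (adjusted p = 0.0069 by edgeR) that missed the threshold when tested with limma on log2(TPM + 1) and log2(TPM + 0.1), at adjusted p of 0.0819 and 0.0806, with 0.00302 as the lowest adjusted p under any setting. Nup35 had 21.1, 21.1 and 21.2 CPM with PDGF-DD and 20.1, 18.7 and 16.9 CPM in control. Its log2 fold change of 0.18 (adjusted p = 0.0445 by edgeR) passed in only 5 of the 15 other settings, with adjusted p between 0.009 and 0.234, the highest without control replicate 3.

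**Figure D3:**
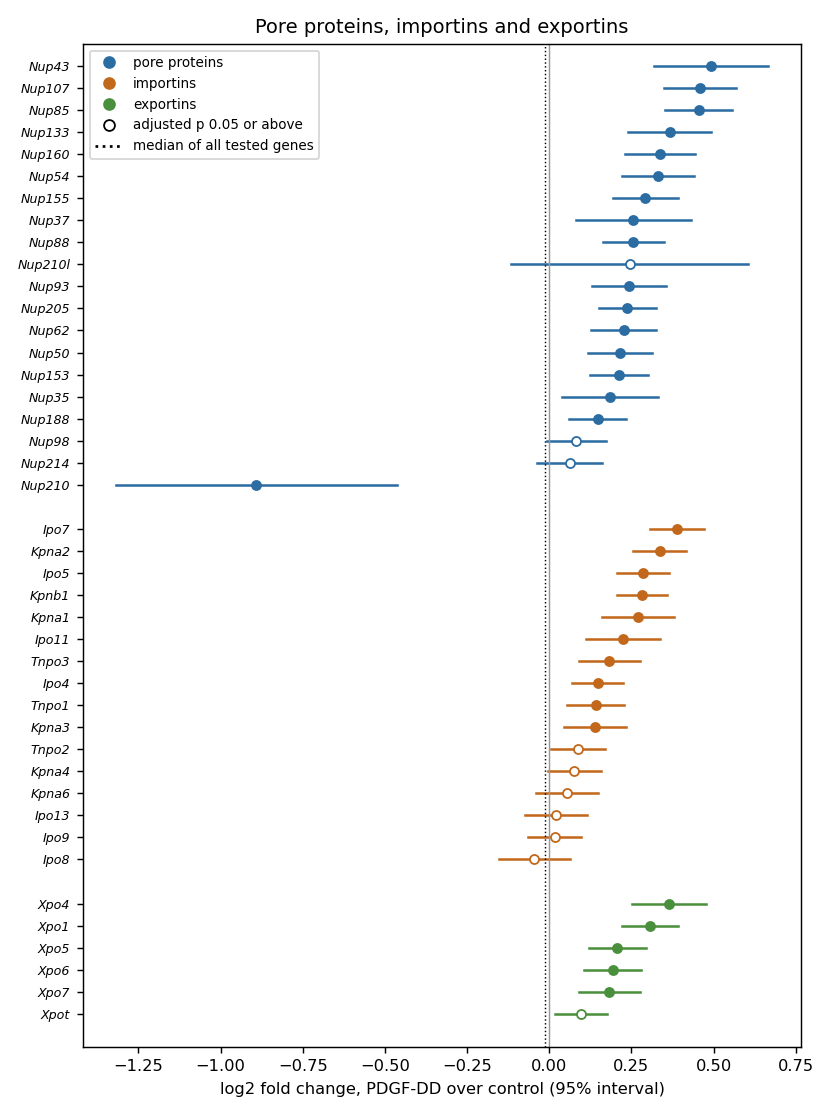
Log2 fold change of PDGF-DD over control with its 95% interval for each tested member, by class, with filled points for an adjusted p under 0.05 (edgeR) and open points otherwise. Most points lie to the right of the dotted median of all tested genes (-0.01), from 0.49 for Nup43 downwards, and Nup210 alone lies far to the left at -0.89.

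Among pore proteins not assigned here to the scaffold rings, some rose and others did not pass. In the channel, Nup54 (Entrez gene 269113) had 41.9, 41.3 and 42.2 CPM with PDGF-DD and 34.0, 33.6 and 32.1 CPM in control, a log2 difference of 0.33 (SE 0.05, adjusted p = 1.75e-05 by edgeR). Nup62, its partner in the FG-repeat complex of the channel, had 90.4, 92.3 and 91.7 CPM with PDGF-DD and 76.4, 73.7 and 84.3 CPM in control, a log2 difference of 0.23 (adjusted p = 0.00047 by edgeR). Nup98 codes for a precursor that is cut into the FG protein NUP98 and the outer-ring protein NUP96, which a count over the gene cannot separate. It had 134, 125 and 136 CPM with PDGF-DD and 121, 131 and 122 CPM in control. Its groups overlapped and it did not pass (log2 fold change 0.08, 95% interval -0.01 to 0.17, adjusted p = 0.146 by edgeR), except without PDGF-DD replicate 2 (0.0382, and up to 0.521 under the others).

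On the cytoplasmic face, Nup88 had 75.1, 76.5 and 78.9 CPM with PDGF-DD and 64.0, 65.6 and 63.3 CPM in control, a log2 difference of 0.26 (adjusted p = 5.68e-05 by edgeR). Nup214, the FG protein that Nup88 binds there, had 73.5, 70.7 and 72.6 CPM with PDGF-DD and 64.7, 70.9 and 72.1 CPM in control, where replicate 1 was the low library. It did not pass (log2 fold change 0.06, 95% interval -0.04 to 0.16, adjusted p = 0.337 by edgeR). On the nuclear side, the basket protein gene Nup153 had 106, 104 and 108 CPM with PDGF-DD and 87.7, 93.0 and 93.6 CPM in control. Nup50, which binds it and helps release imported cargo, had 71.1, 69.6 and 65.5 CPM with PDGF-DD and 57.9, 60.4 and 59.3 CPM in control. Both rose by a log2 fold change of 0.21, with adjusted p = 0.00027 by edgeR for Nup153 and 0.000746 for Nup50.

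The only member that fell was Nup210 (Entrez gene 54563), a membrane-anchored nucleoporin known to be expressed in some cell types and not in others. Its counts were 24, 29 and 23 with PDGF-DD and 49, 50 and 41 in control. This corresponded to 1.18 ± 0.150 CPM with PDGF-DD and 2.203 ± 0.231 CPM in control (SD, n = 3 each) and to a log2 difference of -0.89 (SE 0.21, 95% interval -1.32 to -0.46, adjusted p = 0.00128 by edgeR). No PDGF-DD library reached the lowest control library, and the gene was lower under each of the 15 other settings, at adjusted p between 0.000396 and 0.0198. With limma the log2 difference was -0.31 on the log2(TPM + 1) scale and -0.17 on the log2(FPKM + 1) scale, where the pseudocount shrinks the differences of genes at such low levels. Its relative Nup210l had 54.5, 50.4 and 71.2 counts with PDGF-DD and 48.1, 46.4 and 52.5 in control and did not pass (log2 fold change 0.25, 95% interval -0.12 to 0.61, adjusted p = 0.293 by edgeR).

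Of the importin beta-type receptors, 7 of 11 rose. Ipo7 (Entrez gene 233726), which imports ribosomal proteins and other basic cargo, had 267, 253 and 279 CPM with PDGF-DD and 203, 204 and 203 CPM in control, the largest rise of the importins (log2 fold change 0.39, SE 0.04, adjusted p = 2.48e-08 by edgeR). Kpnb1, the most abundant member, had 679.9, 643 and 680.2 CPM with PDGF-DD and 546, 552 and 549 CPM in control, a log2 difference of 0.28 (SE 0.04, adjusted p = 1.09e-06 by edgeR). Ipo5, another importer of ribosomal proteins and histones, had 354, 343 and 362 CPM with PDGF-DD and 284, 293 and 293 CPM in control, a log2 difference of 0.28 (SE 0.04, adjusted p = 1.36e-06 by edgeR). The control libraries of these 3 genes lay within a few percent of each other, and all PDGF-DD libraries stood above them.

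Smaller rises were seen for the rest of the importin beta-type receptors that passed. Ipo11, an importer of ubiquitin-conjugating enzymes, had 49.5, 45.9 and 52.4 CPM with PDGF-DD and 40.9, 43.7 and 41.9 CPM in control, a log2 fold change of 0.22. Tnpo3, which imports serine- and arginine-rich splicing factors, had 113, 113 and 106 CPM with PDGF-DD and 92.1, 102 and 97.8 CPM in control, a log2 fold change of 0.18. Ipo4 had 254, 259 and 252 CPM with PDGF-DD and 229.6, 223 and 237 CPM in control, a log2 fold change of 0.15. All 3 had groups that did not overlap, with edgeR adjusted p between 0.00179 and 0.00334. Tnpo1, or transportin 1, the importer of hnRNP proteins, had 224, 213 and 232 CPM with PDGF-DD and 197, 211 and 198 CPM in control. Its call (log2 fold change 0.14, adjusted p = 0.0089 by edgeR) was lost with limma on log2(TPM + 1), log2(TPM + 0.1) and log2(FPKM + 1) (0.167, 0.163 and 0.0625) and without PDGF-DD replicate 3 (0.0613), with 0.00245 as the lowest adjusted p under any setting.

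Of the importin beta-type receptors, 4 did not pass. Ipo9, an importer of histones and actin, averaged 153 ± 2.96 CPM with PDGF-DD and 151 ± 4.54 CPM in control (SD, n = 3 each), a difference of 1.13% with a 95% interval of -4.41% to 6.99%. Ipo13, which carries cargo in both directions, averaged 65.9 ± 1.45 CPM with PDGF-DD and 65.0 ± 0.929 CPM in control, a difference of 1.43% (-4.90% to 8.18%). Ipo8 averaged 39.8 ± 1.74 CPM with PDGF-DD and 41.1 ± 0.881 CPM in control, a difference of -3.09% (-10.1% to 4.49%). Tnpo2 averaged 136 ± 1.78 CPM with PDGF-DD and 128 ± 3.31 CPM in control, a difference of 6.29% whose interval (0.457% to 12.5%) leaves out 0. It missed the threshold after adjustment (adjusted p = 0.0846 by edgeR) and passed only when libraries were scaled to total counts (0.0492, and up to 0.311 under the others). The 4 intervals reach at most 10.1% down and 12.5% up, whereas Ipo7 rose by 30.9% (23.6% to 38.7%).

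Of the importin alpha genes, 3 of 5 rose. Kpna2 (Entrez gene 16647), importin alpha 1 in mouse and a transcript known to be abundant in dividing cells, had 150.1, 152 and 148 CPM with PDGF-DD and 122, 118 and 117 CPM in control, a log2 difference of 0.34 (SE 0.04, adjusted p = 1.57e-07 by edgeR). Kpna1 had 77.8, 69.0 and 80.2 CPM with PDGF-DD and 59.8, 64.8 and 63.4 CPM in control, a log2 difference of 0.27 (adjusted p = 0.000259 by edgeR), with PDGF-DD replicate 2 the low library of its group. Kpna3 had 95.9, 92.0 and 102 CPM with PDGF-DD and 85.4, 89.2 and 89.0 CPM in control. Its log2 fold change of 0.14 (adjusted p = 0.0179 by edgeR) was lost with limma on log2(TPM + 1) and log2(TPM + 0.1) (0.122 and 0.118) and without PDGF-DD replicate 3 (0.119), with 0.00469 as the lowest adjusted p. Kpna4 had 149, 143 and 153 CPM with PDGF-DD and 140.2, 142 and 141 CPM in control and did not pass (adjusted p = 0.137 by edgeR), except without PDGF-DD replicate 2 (0.0459, and up to 0.376 under the others). Kpna6 did not pass either, at 99.4 ± 5.51 CPM with PDGF-DD and 95.8 ± 2.42 CPM in control (adjusted p = 0.379 by edgeR). Within the summed TPM of the importin alpha genes, Kpna2 made up 43.5% ± 1.52 with PDGF-DD and 39.8% ± 0.909 in control, and Kpna4 23.3% ± 0.233 and 25.6% ± 0.0717 (SD, n = 3 each).

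Of the 6 exportins, 5 rose. Xpo1 (Entrez gene 103573), or CRM1, the export receptor for proteins with leucine-rich signals and for several kinds of RNA, had 140.5, 134 and 139 CPM with PDGF-DD and 109, 116 and 109 CPM in control, a log2 difference of 0.31 (SE 0.04, adjusted p = 1.61e-06 by edgeR). Xpo4, an exporter with cargo such as SMAD3 and the translation factor eIF5A, rose most, with 47.1, 45.0 and 49.9 CPM in PDGF-DD libraries and 34.9, 38.2 and 37.2 CPM in control libraries (log2 fold change 0.36, SE 0.05, adjusted p = 7.76e-06 by edgeR). Xpo5, which exports precursor microRNAs, had 131, 126 and 132 CPM with PDGF-DD and 109, 118 and 110.3 CPM in control, a log2 fold change of 0.21. Xpo6, the exporter of actin and profilin, had 105, 103 and 102 CPM with PDGF-DD and 87.3, 90.8 and 93.1 CPM in control, a log2 fold change of 0.19. Xpo7 had 73.0, 71.0 and 70.6 CPM with PDGF-DD and 62.2, 64.9 and 61.9 CPM in control, a log2 fold change of 0.18. In each of these 5 genes the lowest PDGF-DD library lay above the highest control library, and edgeR's adjusted p was at most 0.00222.

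Xpot was at the threshold. It had 245, 233 and 247 CPM with PDGF-DD and 224, 231 and 223 CPM in control, so that the groups were separated by a narrow gap between PDGF-DD replicate 2 and control replicate 2. It did not pass (log2 fold change 0.10, 95% interval 0.02 to 0.18, adjusted p = 0.0519 by edgeR), but did with RLE size factors (0.0499), with total count scaling (0.0292), without the low-count filter (0.0475) and without PDGF-DD replicate 2 (0.0178), the highest adjusted p under any setting being 0.228. Its share of the summed exportin TPM was 28.6% ± 0.318 with PDGF-DD and 30.8% ± 0.379 in control, and that of Xpo1 20.0% ± 0.0809 and 18.6% ± 0.311 (SD, n = 3 each).

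**Figure D4:**
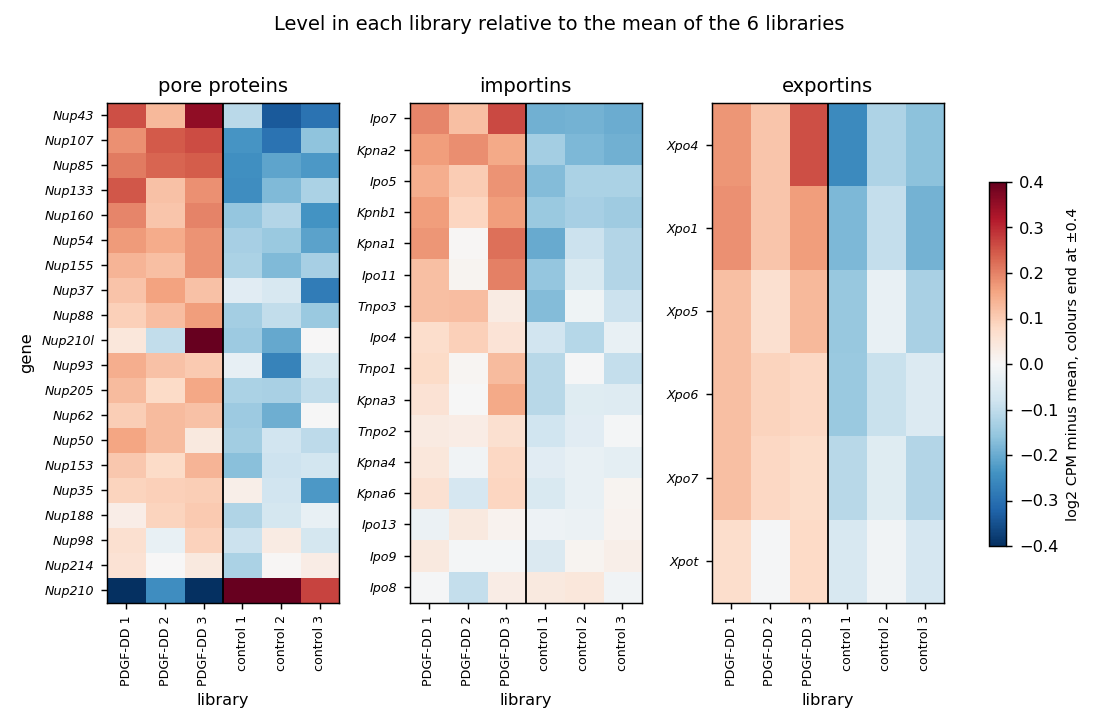
Log2 CPM of each tested member in each library, relative to the mean of its 6 libraries, with the 3 PDGF-DD libraries left of the 3 control libraries and genes in order of fold change within each class. For the genes assigned to the outer and inner rings the PDGF-DD side is red, but only faintly so for Nup188 and Nup35. The lower importins from Tnpo2 to Ipo8 are pale throughout, and Nup210 has the opposite colours.

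Libraries of a group were not alike for these genes. In the PDGF-DD group replicate 2 was the lowest library for 26 of 42 tested members and replicate 3 the highest for 27. In the control group replicate 1 was the lowest for 21 members and replicate 2 the highest for 20. The number of members that rose was 32 without PDGF-DD replicate 2, 28 without PDGF-DD replicate 3 and 31 without control replicate 1, the library that stood apart.

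Ratios of related genes are given as description only. For 5 pairs of close relatives, chosen after their values were seen, the log2 ratio of the CPM values was taken within each library, so that library scaling cancels. It shows a difference between the groups and not the relative level of the genes, since CPM is not scaled to length. The ratio of Ipo7 to Ipo8 was 2.72, 2.74 and 2.76 with PDGF-DD and 2.29, 2.29 and 2.34 in control, a difference of 0.43. The ratio of Kpna1 to Kpna6, of the same importin alpha subfamily, was -0.39, -0.43 and -0.37 with PDGF-DD and -0.64, -0.56 and -0.63 in control, a difference of 0.22. Nup210 against Nup210l gave -1.20, -0.79 and -1.63 with PDGF-DD and 0.03, 0.12 and -0.37 in control, a difference of -1.13 that rests on few counts. The ratio of Kpna3 to Kpna4 differed by 0.06 with groups that just did not overlap, and that of Tnpo1 to Tnpo2 by 0.05 with groups that did overlap. A two-sided exact permutation test over the libraries returned p = 0.1 for the first 4 of these pairs, the smallest it can give, and p = 0.2 for Tnpo1 and Tnpo2 (0.125 and 0.2 adjusted over the 5 pairs), so none could pass 0.05.

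**Figure D5:**
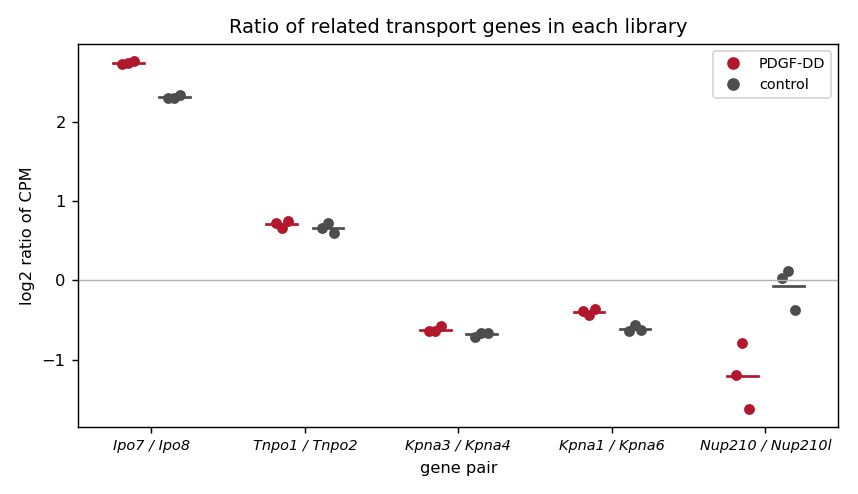
Log2 ratio of CPM of 5 pairs of related genes in each library (points) with group means (lines), PDGF-DD in red left of control in grey. The ratio of Ipo7 to Ipo8 lies between 2.72 and 2.76 with PDGF-DD and between 2.29 and 2.34 in control, and that of Nup210 to Nup210l is lower with PDGF-DD.

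Genes of the pathway that the naming rule leaves out also rose in part. The lists of these genes were made with earlier results of these data known. Of 12 further pore proteins, 7 rose (58.3%) and none fell, with a median log2 fold change of 0.16. Of 17 genes of the Ran cycle and other transport factors, 11 rose (64.7%) and none fell, with a median of 0.20. Over all tested genes 19.1% were higher and 17.4% lower. Over both lists no gene had an unadjusted p under 0.05 in the lower direction, and DESeq2 called none lower. Rcc1, the exchange factor that loads Ran with GTP on chromatin, had 48.8, 49.2 and 46.6 CPM with PDGF-DD and 34.7, 34.3 and 32.6 CPM in control, a log2 difference of 0.51 (SE 0.05, adjusted p = 2.03e-08 by edgeR). Ndc1, a membrane nucleoporin that helps set pores into the envelope, had 71.3, 69.4 and 72.5 CPM with PDGF-DD and 51.5, 51.0 and 53.0 CPM in control, a log2 difference of 0.45 (SE 0.05, adjusted p = 1.68e-08 by edgeR). Cse1l, the exportin that returns importin alpha to the cytoplasm, rose by a log2 fold change of 0.37. Ranbp1, which helps strip Ran from exported receptors, rose by 0.31 and Ran itself by 0.29. Ranbp6 and Ranbp17, which are also karyopherins, did not pass. Their log2 fold changes were -0.04 and -0.01, with adjusted p = 0.777 and 0.959 by edgeR. Rae1, Nupl1, which codes for the channel partner of Nup54 and Nup62, and Aaas rose by log2 fold changes of 0.28, 0.21 and 0.20, and Sec13, the most abundant of the further pore proteins, by 0.13. The basket protein gene Tpr, the next most abundant, did not pass (log2 fold change 0.08, adjusted p = 0.11 by edgeR).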

How the data were processed

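Messenger RNA libraries were prepared from primary mouse cardiac fibroblasts by oligo(dT) capture, fragmentation and random priming, per the labels' protocols. The submitters' processing notes name build mm9 and the tools RSEM 1.2.12, Bowtie2 2.2.5, HISAT2 2.0.4 and DESeq2 1.4.5, without saying what each did. Which gene annotation and read filter the authors used, and whether strand counted, is not given in the sources used here. The authors deposited estimated counts per gene without normalization, per the file headers, with FPKM and TPM values that they scaled to length and depth. Of the members, 16 had counts that were not whole in at least 1 library, among them Kpna2, Nup98, Nup62, Tnpo1 and Xpo1, so reads may be shared with other genes and these values are less certain.

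Estimated counts were rounded, filtered with filterByExpr (13270 genes left), scaled with TMM factors and compared with edgeR 4.0.16 by its quasi-likelihood test (R 4.3.3, robust, two-sided, Benjamini-Hochberg adjustment over all tested genes). Intervals are 95%, and the SE is the log2 fold change divided by the square root of F. Library totals differed little (21221115 to 21371829 counts), and tested members had at least 23 counts in each library, so that depth limits Nup210 and Nup210l most. Alternatives used limma 3.58.1 on log2 values with a pseudocount of 1 or 0.1, DESeq2 1.42.0, other scalings and 5 of 6 libraries. The edgeR procedure was tested on simulated data. All members could be named, and of the other pathway lists the called genes with the 4 smallest p-values and the 2 most abundant. Seh1l, Ahctf1, Pom121, Ranbp6 and Ranbp17 were named beyond this rule, after their values were seen. Members, lists and gene pairs were chosen with earlier results of these data known. Promoter sequences are from RefSeq (GRCm38.p6); because this build differs from mm9, no other coordinates are given. Protein sequences were not used here, so the planned protein features were left out.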

Additional observations from a re-analysis of the deposited data

How the results depend on the processing

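Of the 42 tested members, 37 to 42 kept their side of the threshold in each of the 15 other settings, and no member that passed in any setting changed direction. The number of members that rose was 27 to 33 under other scalings, filters and tests and 28 to 32 with 1 library left out, and 1 fell, Nup210, in every setting. Pore proteins that rose numbered 14 to 16, importins 8 to 11 and exportins 5 or 6, and the further pore and transport genes 17 to 20. Calls that were lost in at least 1 setting belonged to Nup35, Nup37, Nup188, Kpna3 and Tnpo1. With the replicate number as a block, 30 members rose and 1 fell, with Nup35 the lost call (adjusted p = 0.0623), and 2269 of all genes rose and 2076 fell. Same-numbered libraries did not deviate together (correlations of -0.07, -0.09 and -0.03 for replicates 1, 2 and 3). The labels do not say whether they shared a culture or preparation. These correlations cannot settle it, since deviations within a group also hold counting noise. With 1 library left out, 2147 to 2643 of all genes rose and 1729 to 2374 fell. The median log2 fold change of all tested genes lay between -0.03 (upper-quartile factors) and 0.00, and that of the members between 0.20 and 0.24.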
